A study of Mus musculus with 6 samples.

Results

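A set of 10 genes was examined in jejunal intestinal epithelial cells (IEC): the oxidant-producing genes Duox2, Duoxa2 and Nos2, the secreted acute-phase genes Lcn2, Saa1, Saa2 and Saa3, and the STAT3 pathway genes Il22ra1, Socs3 and Stat3. They were chosen by symbol, and all 10 have a row among the 19616 genes of the deposited table. RNA came from 3 control mice (C1, C3 and C3-3), which were wild-type, and from 3 Hdac1/2-deleted mice (H1, H5 and H9), of genotype villin-Cre Hdac1-/-; Hdac2-/-, with 1 library per mouse. All 6 were 3 months old, the colony was on a mixed C57BL/6J X 129SV X CD1 background, and every cell preparation was released from the jejunum with EDTA. Villin-Cre acts in epithelial cells of the gut, so other cells that came off with the epithelium keep both genes.

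DUOX2 is an NADPH oxidase of the apical membrane that releases hydrogen peroxide, and it leaves the endoplasmic reticulum only with its maturation factor DUOXA2. Inducible nitric oxide synthase, the product of Nos2, makes nitric oxide from arginine. In the gut IL-22 binds a receptor formed by IL22RA1 and IL10RB, the kinases JAK1 and TYK2 then phosphorylate STAT3, and STAT3 raises transcription of antimicrobial and acute-phase genes as well as of Socs3, which in turn blocks the JAK kinases. Lipocalin 2 (Lcn2) binds bacterial siderophores, and the serum amyloid A proteins (Saa1, Saa2 and Saa3) carry lipids and retinol during infection.

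Duox2, Duoxa2, Nos2, Lcn2 and Saa3 were increased in Hdac1/2-deleted IEC, by 7.03-fold (Nos2) to 59.1-fold (Saa3). Il22ra1, Socs3 and Stat3 were not called, and their 95% intervals reached from 0.877-fold to 1.33-fold for Il22ra1, from 0.883-fold to 1.43-fold for Stat3, and from 0.554-fold to 14.2-fold for Socs3. Saa1 and Saa2 were near the detection limit in all 6 libraries and did not pass the filter on low counts. A gene was called when edgeR's quasi-likelihood test gave an adjusted p (Benjamini-Hochberg, over all 15618 genes tested) of at most 0.05 and the change was at least 2-fold. By this rule 12.4% of all tested genes were increased and 12.7% were decreased, that is 1944 and 1990 genes (2463 and 1538 when scaled by library totals alone), against 5 of the 8 tested members (62.5%) increased and 0 decreased, all 8 fold changes being positive. The median log2 fold change was 2.99 over the 8 tested members and -0.00814 over all tested genes. Lcn2 and Saa3 passed the filter only through the Hdac1/2-deleted libraries (1 and 2 control libraries reached the required level, 0.163 CPM before TMM scaling, of the 3 libraries that a gene needed), so their high group decided that they were tested, and these figures describe the members without supporting anything about them. In RNA from a bulk preparation, more cells that express a gene and more RNA per cell cannot be told apart.

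Total counts ranged from 36111035 in H5, the shallowest library, to 65902344 in C1. Levels are given as CPM (counts per 1000000 counts of the library) after TMM scaling, and 3 counts, taken as the detection floor, corresponded to 0.0405 to 0.0790 CPM. Hdac1 fell from 40.8 ± 7.33 CPM in controls to 3.77 ± 1.16 CPM (SD, n = 3 mice each, edgeR adjusted p = 2.91e-05). Hdac2 was at 27.7 ± 4.72 and 24.5 ± 2.70 CPM with overlapping groups, and a count over the whole gene, which also takes reads from outside a deleted exon, does not check that deletion. Mouse C3 had 3082 counts over 4 Y-linked genes and the other mice had 1 to 13, so C3 stood apart in sex. The mice were sampled once each, and nothing in the labels gives their litter or preparation day.

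The promoters of 7 members are shown because these genes either rose together or carry a match to a motif of the pathway. Each is 300 bases on GRCm38.p6, from 250 bases before to 50 bases after the start of transcription in RefSeq, 5′ to 3′ on the strand of the gene. For some genes the GENCODE annotation reaches further upstream than this start. The Socs3 and Lcn2 windows lie wholly, and the Duox2 window mostly, inside the genes as GENCODE places them. Distances to the start below are to the RefSeq start. Capitals mark a match to TTCNNNGAA (the palindrome that STAT factors bind) or to TTNNGCAA (a motif of C/EBP factors), searched on both strands, so that a match on the other strand shows as the reverse complement.

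Duox2 (chr2:122298178-122298477, minus strand) and Duoxa2 (chr2:122298650-122298949, plus strand) lie head to head, and 450 bases separate the annotated genes.
Duox2: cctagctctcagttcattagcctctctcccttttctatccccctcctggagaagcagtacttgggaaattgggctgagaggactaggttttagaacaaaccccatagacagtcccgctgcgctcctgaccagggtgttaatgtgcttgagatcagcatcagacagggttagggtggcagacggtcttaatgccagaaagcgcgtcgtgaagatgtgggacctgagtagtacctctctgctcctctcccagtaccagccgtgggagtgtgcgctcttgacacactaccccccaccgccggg
Duoxa2: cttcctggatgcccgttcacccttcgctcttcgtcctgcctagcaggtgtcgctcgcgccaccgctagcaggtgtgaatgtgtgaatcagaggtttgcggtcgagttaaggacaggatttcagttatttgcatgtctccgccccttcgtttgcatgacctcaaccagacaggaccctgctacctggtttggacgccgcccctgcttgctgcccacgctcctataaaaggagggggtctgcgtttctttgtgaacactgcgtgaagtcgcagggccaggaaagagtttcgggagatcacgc

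Socs3 lies at chr11:117969317-117969616 on the minus strand, and Lcn2 at chr2:32387690-32387989 on the minus strand.
Socs3: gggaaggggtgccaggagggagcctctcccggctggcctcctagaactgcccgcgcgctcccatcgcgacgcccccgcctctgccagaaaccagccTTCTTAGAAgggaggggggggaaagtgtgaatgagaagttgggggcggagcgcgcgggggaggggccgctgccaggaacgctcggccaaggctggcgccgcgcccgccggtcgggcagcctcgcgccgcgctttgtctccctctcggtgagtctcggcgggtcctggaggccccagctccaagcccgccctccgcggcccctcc
Lcn2: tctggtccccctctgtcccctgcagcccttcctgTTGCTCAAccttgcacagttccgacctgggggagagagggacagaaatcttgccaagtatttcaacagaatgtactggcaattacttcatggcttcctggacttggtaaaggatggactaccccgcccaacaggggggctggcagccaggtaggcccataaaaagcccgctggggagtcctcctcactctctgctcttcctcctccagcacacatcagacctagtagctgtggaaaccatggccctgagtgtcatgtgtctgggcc

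The Saa genes share a cluster of 42316 bases on chromosome 7. Their promoters lie at chr7:46715627-46715926 (Saa3, minus strand), chr7:46742931-46743230 (Saa1, minus strand) and chr7:46751583-46751882 (Saa2, plus strand).
Saa3: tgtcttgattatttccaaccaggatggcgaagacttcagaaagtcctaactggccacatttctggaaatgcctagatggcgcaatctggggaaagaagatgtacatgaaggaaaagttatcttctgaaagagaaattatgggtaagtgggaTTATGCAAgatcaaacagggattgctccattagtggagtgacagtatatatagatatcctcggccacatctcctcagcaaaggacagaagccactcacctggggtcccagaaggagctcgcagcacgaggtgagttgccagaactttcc
Saa1: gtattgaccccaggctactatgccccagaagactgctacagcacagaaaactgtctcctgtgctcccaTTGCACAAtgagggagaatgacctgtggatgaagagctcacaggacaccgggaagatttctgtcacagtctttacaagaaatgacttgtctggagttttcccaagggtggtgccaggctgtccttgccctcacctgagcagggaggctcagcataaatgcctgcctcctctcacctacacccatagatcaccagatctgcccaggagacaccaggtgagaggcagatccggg
Saa2: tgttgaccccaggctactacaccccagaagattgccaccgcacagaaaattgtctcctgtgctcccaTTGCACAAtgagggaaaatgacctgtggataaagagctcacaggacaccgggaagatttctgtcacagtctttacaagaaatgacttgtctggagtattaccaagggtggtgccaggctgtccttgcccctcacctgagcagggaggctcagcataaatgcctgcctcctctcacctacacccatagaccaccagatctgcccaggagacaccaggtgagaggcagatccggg

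RefSeq gave a promoter for 9 of the 10 members, all but Nos2. TTCNNNGAA occurred in the promoter of Socs3, 154 bases before the start, and in no other member's, while 8.30% of 32851 promoters held it. The stricter form TTCCNGGAA, whose matches are all matches of the first, occurred in 0 of the 9 and in 1.15% of all promoters. TTNNGCAA occurred in the promoters of Lcn2, Saa1, Saa2 and Saa3 and in 10.8% of all promoters, 216 bases before the start in Lcn2 and 99 bases before it in Saa3. The promoters of Saa1 and Saa2 were identical at 287 of 300 bases (95.7%), so their matches, 182 and 183 bases before the start, are near copies of the same stretch. The NF-kB consensus occurred in 0 of the 9 and in 4.51% of all promoters. Such matches are descriptions of letters in this window. The Duox2, Duoxa2, Il22ra1 and Stat3 promoters held none of the motifs searched.

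**Figure D1:**
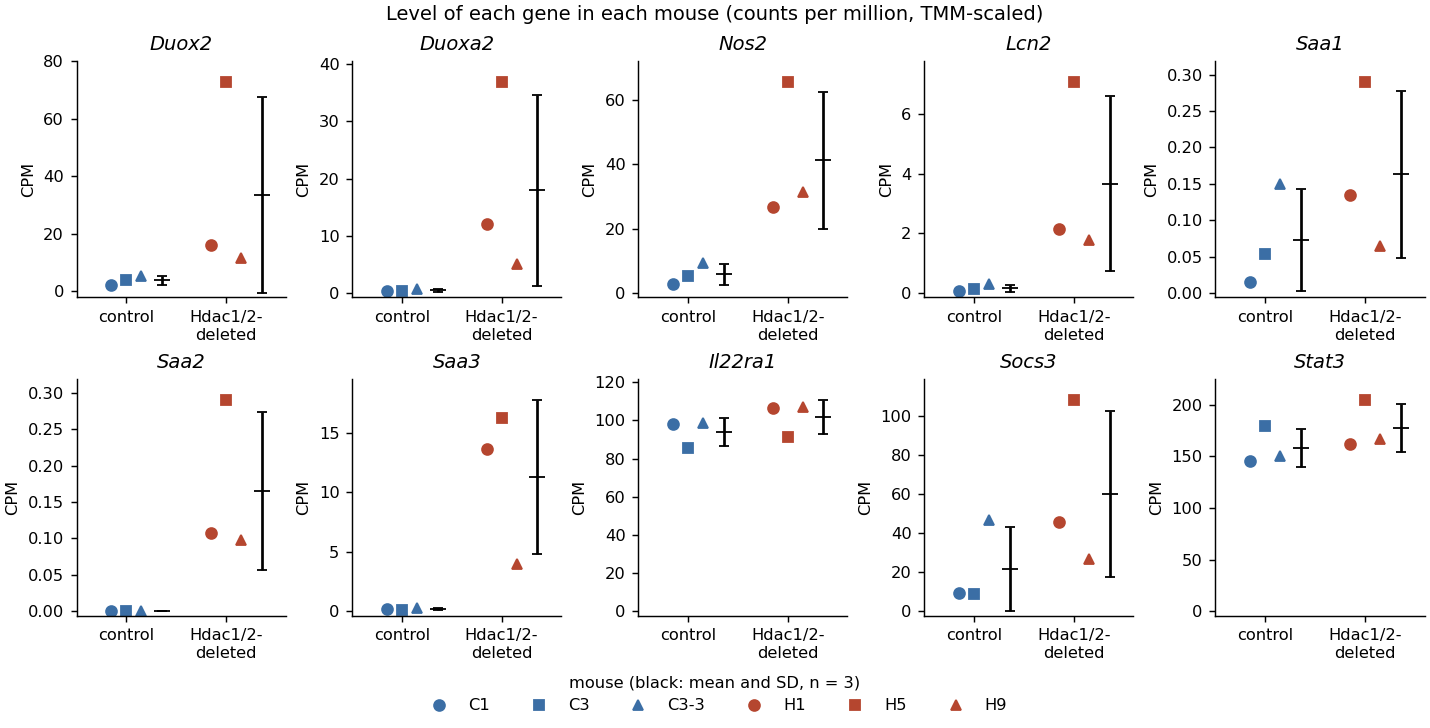
Level of each of the 10 genes in each mouse, in CPM on a linear axis. Coloured symbols are single mice and the black bar is the mean with its SD (n = 3). H5 stood highest among the Hdac1/2-deleted mice in every panel but that of Il22ra1, and the groups overlapped for Saa1, Il22ra1, Socs3 and Stat3.

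The oxidant-producing genes were all low in controls and higher in each Hdac1/2-deleted mouse. Duox2 (chr2:122279247-122298449, minus strand, GRCm38) was at 2.22, 3.84 and 5.12 CPM in C1, C3 and C3-3, and at 16.0, 72.8 and 11.5 CPM in H1, H5 and H9. The lowest Hdac1/2-deleted mouse lay above the highest control, and H5 lay far above the other two Hdac1/2-deleted mice. The means were 3.72 ± 1.45 and 33.5 ± 34.2 CPM, a log2 fold change of 3.17 (SE 0.84, 95% interval 1.08 to 5.26, edgeR adjusted p = 0.0292). Without H5 the log2 fold change was 1.90 with an edgeR adjusted p of 0.00735, and Duox2 was still called. Without C1, C3 or C3-3 it was 2.91, 3.20 or 3.48 and the call was lost (edgeR adjusted p = 0.119, 0.108 and 0.0624), as it was with limma voom (log2 fold change 2.66, adjusted p = 0.0621).

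Duoxa2 (chr2:122298900-122302885, plus strand) had the larger fold change of the pair. It was at 0.438, 0.360 and 0.772 CPM in the controls, from 20 to 41 counts, and at 12.0, 36.9 and 5.07 CPM in H1, H5 and H9, from 312 to 1400 counts. The groups were clearly apart, and the order of the Hdac1/2-deleted mice was that of Duox2. This gave a log2 fold change of 5.10 (SE 0.84, 95% interval 3.08 to 7.12, edgeR adjusted p = 0.00356), and it was called with any single mouse left out, at 4.04 without H5 and 5.55 without H9. Duoxa2 overlaps Duoxa1 on the opposite strand, and Duoxa1 had at most 0.0604 CPM in any mouse.

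Because DUOX2 needs DUOXA2, their balance was compared within each library. There were 5.07, 10.6 and 6.63 Duox2 counts for each Duoxa2 count in C1, C3 and C3-3. In H1, H5 and H9 the ratios were 1.33, 1.98 and 2.28. Every Hdac1/2-deleted mouse therefore held fewer Duox2 counts per Duoxa2 count than every control, H5 included. The mean log2 ratio differed by -1.96 (two-sided exact permutation test, p = 0.1, the smallest that 3 mice against 3 allow). Per kilobase of transcript, Duox2 was at 0.648 and Duoxa2 at 0.329 CPM in controls, against 5.83 and 11.3 CPM in Hdac1/2-deleted IEC, so the order of the pair was turned.

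**Figure D2:**
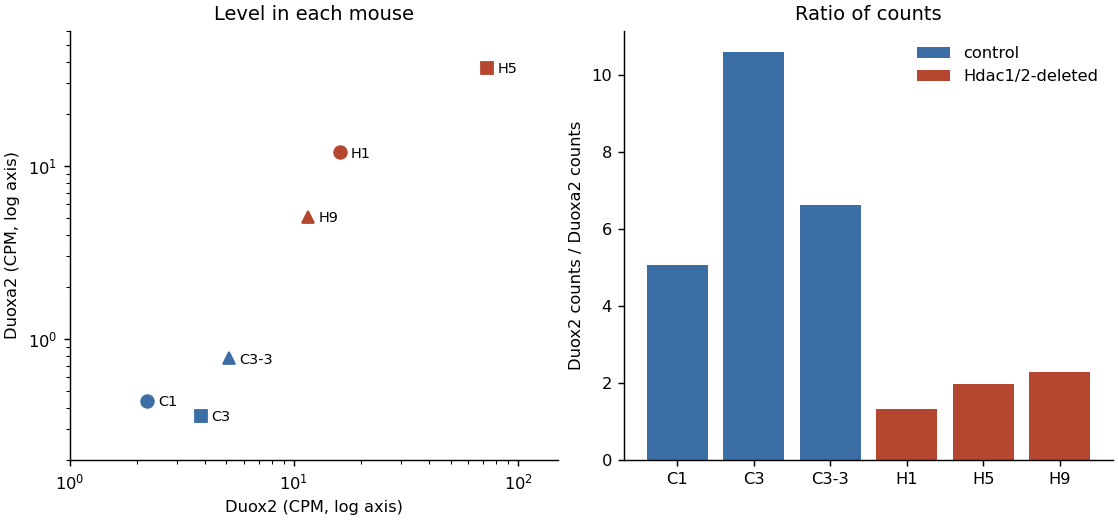
Left, Duoxa2 against Duox2 in each mouse, in CPM on log axes. Right, the number of Duox2 counts for each Duoxa2 count in each mouse, 5.07 to 10.6 in controls and 1.33 to 2.28 in Hdac1/2-deleted mice.

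Nos2 (chr11:78920787-78960254, plus strand) was at 2.96, 5.31 and 9.33 CPM in the controls and at 26.9, 65.5 and 31.3 CPM in H1, H5 and H9. The groups did not overlap, and the Hdac1/2-deleted mice were less spread for Nos2 than for Duox2, the highest being 2.44 times the lowest against 6.31 times. For Nos2 the log2 fold change was 2.81 (SE 0.52, 95% interval 1.56 to 4.06, edgeR adjusted p = 0.00551). It was called with any mouse left out, at 2.32 without H5 and 3.33 without C3-3.

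Among the secreted acute-phase genes, Saa3 showed the largest change of all tested members. Saa3 (chr7:46711998-46715700, minus strand) was at 0.211, 0.0900 and 0.264 CPM in the controls, that is 14, 5 and 14 counts. In H1, H5 and H9 it was at 13.6, 16.2 and 3.98 CPM, from 1010, 615 and 245 counts. Each Hdac1/2-deleted mouse stood far above the controls, with H9 the lowest, and here H1 was close to H5. The log2 fold change was 5.88 (SE 0.65, 95% interval 4.38 to 7.39, edgeR adjusted p = 0.000312) and lay between 5.54 and 6.30 with any mouse left out.

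Lcn2 (chr2:32384633-32388252, minus strand) had 5, 7 and 16 counts in the controls, or 0.0755, 0.126 and 0.301 CPM. It had 160, 268 and 110 counts in H1, H5 and H9, or 2.16, 7.06 and 1.79 CPM. The groups were apart, but the level stayed low, and H5 again stood highest. The log2 fold change was 4.45 (SE 0.73, 95% interval 2.78 to 6.13, edgeR adjusted p = 0.00175), and it was called with any mouse left out, at 3.57 without H5 and 5.18 without C3-3.

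Saa1 (chr7:46740497-46742980, minus strand) had 1, 3 and 8 counts in the controls and 10, 11 and 4 in H1, H5 and H9. These groups overlapped. Saa2 (chr7:46751790-46754313, plus strand) had 0 counts in each control and 8, 11 and 6 counts in H1, H5 and H9. Against a floor of 3 counts in each control library, Saa2 was at least 3.18-fold higher in Hdac1/2-deleted IEC. When no filter was applied, edgeR's quasi-likelihood test gave an adjusted p of 0.00925 for Saa2 and 0.366 for Saa1. The transcripts of the pair were identical at 93.9% of their bases and shared no stretch of 100 bases, the read length, but reads could still be divided between them by the counting, so the sum was tested too. Summed, they had 1, 3 and 8 counts in controls and 18, 22 and 10 in Hdac1/2-deleted mice, with a log2 fold change of 2.13 (SE 0.79, edgeR adjusted p = 0.0579). All 3 Hdac1/2-deleted mice lay above the controls for the sum, which missed the threshold. Saa3 was less alike, at 60.4% identity to Saa1 over the transcript and 48.0% over the promoter.

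The receptor and the transcription factor of the pathway were abundant, and for each the groups overlapped. Il22ra1 (chr4:135728172-135752140, plus strand), the subunit that gives IL-22 its target cells, was at 97.9, 85.5 and 98.4 CPM in controls and at 106, 91.3 and 107 CPM in H1, H5 and H9. Unlike for the other members, H5 was the lowest of the Hdac1/2-deleted mice. Il22ra1 had a log2 fold change of 0.11 (SE 0.13, 95% interval -0.19 to 0.41, edgeR adjusted p = 0.533). Stat3 (chr11:100885098-100939540, minus strand) was at 146, 179 and 150 CPM in controls and at 162, 204 and 167 CPM in H1, H5 and H9. Here H5 and C3 were the highest of their groups. Stat3 had a log2 fold change of 0.17 (SE 0.15, 95% interval -0.18 to 0.51, edgeR adjusted p = 0.416). Stat3 overlaps Stat5a on the opposite strand, and Stat5a had at most 6.43 CPM in any mouse. The counts are of RNA and say nothing of phosphorylated STAT3.

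Socs3 (chr11:117966079-117970047, minus strand), the feedback inhibitor, was at 9.33, 8.41 and 46.6 CPM in C1, C3 and C3-3 and at 45.7, 108 and 26.3 CPM in H1, H5 and H9. Control C3-3 lay above H1 and H9, so the groups overlapped. The log2 fold change was 1.49 (SE 0.92, 95% interval -0.85 to 3.82, edgeR adjusted p = 0.257), and the interval includes both no change and the sizes seen for Nos2 and Duox2. Without C3-3 the log2 fold change was 2.77 and Socs3 was called (edgeR adjusted p = 0.025). Without H5 it was 0.76.

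**Figure D3:**
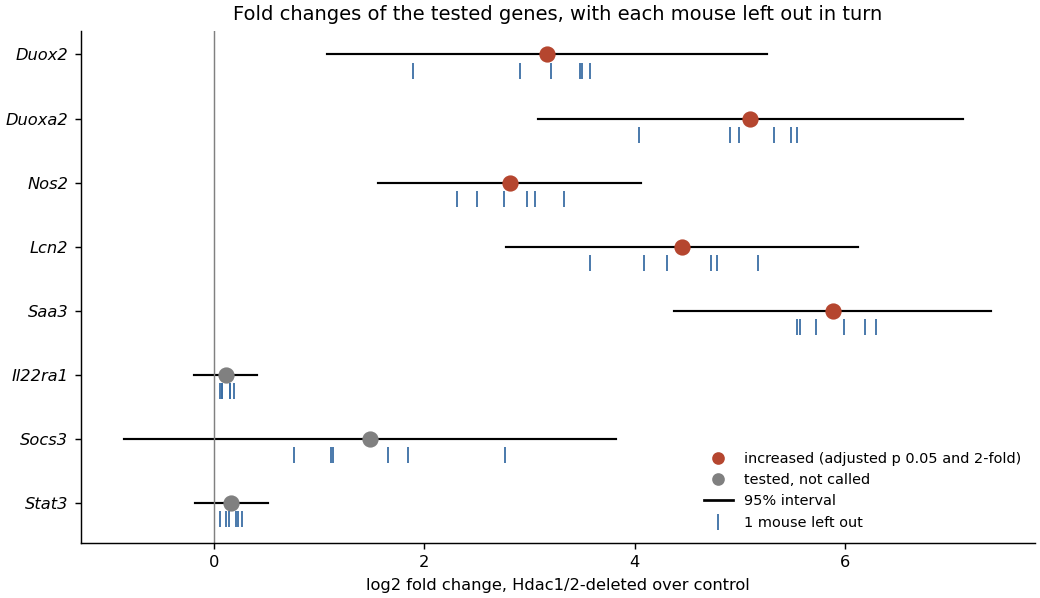
Log2 fold change (Hdac1/2-deleted over control) of the 8 tested members with its 95% interval. Blue ticks give the same value with 1 mouse left out in turn, and they run from 1.90 to 3.58 for Duox2 and from 0.758 to 2.77 for Socs3.

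Of the 8 tested members, 5 had every Hdac1/2-deleted mouse above every control, as had 26.7% of all tested genes. The mice of a group were not alike, and several members shared an order of the mice. H5 was the highest Hdac1/2-deleted mouse for 9 of 10 members and H9 the lowest for 7. Among the controls C3-3 was the highest for 8 of the 9 members with counts, the exception being Stat3. These orders are descriptions over genes measured in the same libraries, and Saa1 and Saa2, near the detection limit, are among them. How often all tested genes showed the same orders was not counted, so nothing particular to the members is read from them. The ratio of the highest to the lowest Hdac1/2-deleted mouse was 6.31 for Duox2, 7.27 for Duoxa2 and 4.11 for Socs3, against a median of 1.38 over 13153 genes. Those 13153 are the tested genes with at least 10 counts in every mouse, which leaves out Lcn2 and Saa3. In controls the ratio was 5.54 for Socs3 and 2.31 for Duox2, against a median of 1.35. For Il22ra1 and Stat3 it was between 1.15 and 1.26 in either group. H5, the mouse with the highest values, also had the shallowest library, and the part of depth in its values was not tested.

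**Figure D4:**
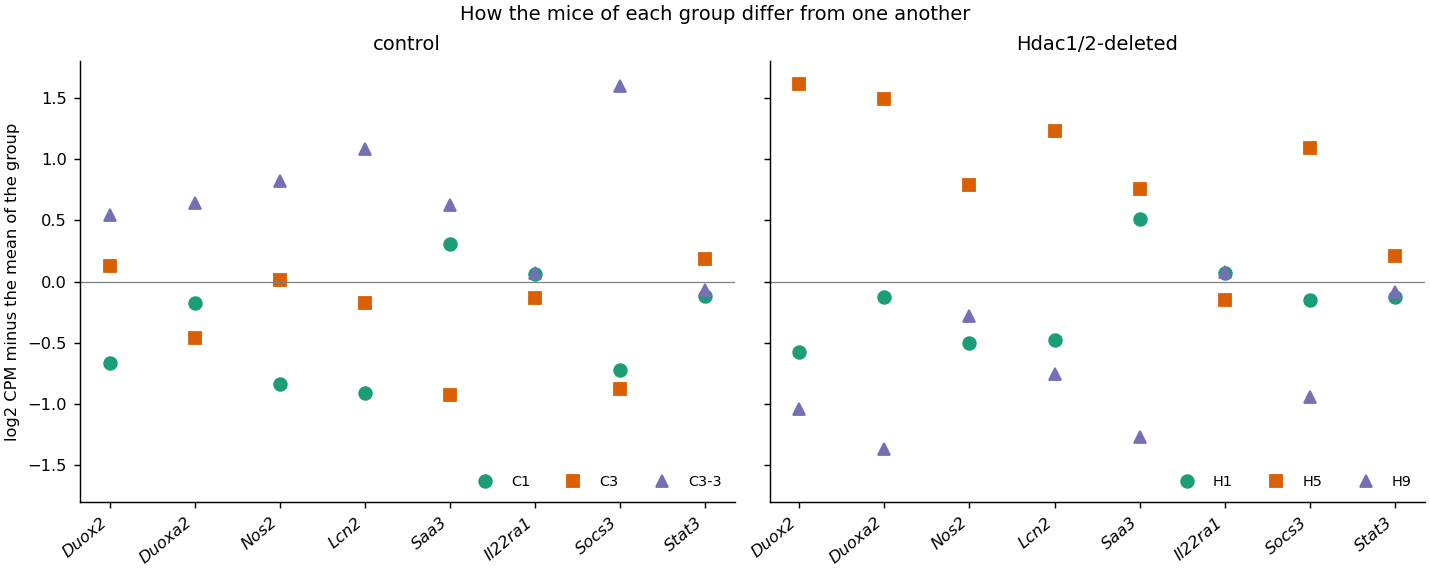
Log2 CPM of each of the 8 tested members in each mouse, minus the mean of its own group, controls on the left and Hdac1/2-deleted mice on the right. C3-3 stood highest in 7 of the 8 control columns and H5 in 7 of the 8 Hdac1/2-deleted columns.

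Per kilobase of transcript the order of the members changed between the groups below the leading pair. In controls the mean level ran from Stat3 (54.1 CPM per kilobase) and Il22ra1 (36.6) through Socs3 (8.40), Nos2 (1.40), Duox2 (0.648), Saa3 (0.339), Duoxa2 (0.329), Lcn2 (0.183) and Saa1 (0.120) to Saa2 (0). In Hdac1/2-deleted IEC it ran from Stat3 (60.7 CPM per kilobase) and Il22ra1 (39.5) through Socs3 (23.5), Saa3 (20.3), Duoxa2 (11.3), Nos2 (9.83), Duox2 (5.83) and Lcn2 (4.01) to Saa2 (0.272) and Saa1 (0.268). Stat3 and Il22ra1 did not overlap in either group, nor did Socs3 and Nos2 in controls. In Hdac1/2-deleted IEC each pair of neighbours from Il22ra1 to Lcn2 overlapped across the mice. The length used was that of the lowest-numbered protein-coding transcript in GENCODE, which need not be the form these cells make.

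Genes with the most similar level profile over the 6 mice were ranked among 10762 genes by the root mean square difference of mean-centred log2 CPM. For Duox2, Nos2 and Lcn2 the step between the groups makes up much of the profile. Genes with a like fold change therefore rank near them, and shared regulation was not tested. For Nos2 they were C4b, complement component C4 (0.187), Reg3g, an antibacterial lectin (0.299), and Slc29a4, a monoamine transporter (0.346). Nos2 itself was first for Duox2 (0.484), ahead of C4b (0.505) and the carbonic anhydrase Car7 (0.544). For Lcn2 they were Icam1, an adhesion molecule (0.393), Duoxa2 (0.498) and Pkhd1 (0.582). For Stat3, whose own profile was nearly flat, the differences were smaller, with Mrpl4 (0.0418), a mitochondrial ribosomal protein, Ndufs8 (0.0422), a subunit of respiratory complex I, and Hn1 (0.0460) first.

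The wider family of NADPH oxidases and peroxidases held 13 tested genes, of which 5 rose, 1 fell and 7 were not called (median log2 fold change 0.57). Cyba, the small membrane subunit that stabilises several NOX enzymes, was at 41.0, 45.3 and 54.0 CPM in controls and at 207, 268 and 273 CPM in H1, H5 and H9. It rose evenly in the 3 mice (log2 fold change 2.41, SE 0.17, edgeR adjusted p = 2.26e-05). Noxa1, an activator of NOX1, rose as evenly (log2 fold change 2.03, adjusted p = 5.11e-05 by edgeR). Noxo1, the organiser of the same enzyme, fell from 23.6, 43.1 and 33.4 CPM to 17.1, 15.4 and 15.9 CPM (log2 fold change -1.05, edgeR adjusted p = 0.00447), a call that was lost without C3, with limma voom and with scaling by library totals alone. Nox1 was at 0.211, 2.79 and 2.24 CPM in controls and at 11.3, 4.79 and 5.32 CPM in Hdac1/2-deleted mice, and it missed the threshold (edgeR adjusted p = 0.0932) although the groups did not overlap. Duox1, the close relative of Duox2, rose with H5 highest (1.63 CPM against 0.243 and 0.195 in H1 and H9, at most 0.0900 in controls, edgeR adjusted p = 0.0246). Nox4 rose too, and Lpo, a lactoperoxidase, had no count in any control and was at least 11.4-fold higher. Duox1, Nox4 and Lpo had at most 10 counts in any control library and passed the filter only through the Hdac1/2-deleted libraries. Their high group decided that they were tested, so the counts and the median of this list are descriptions.

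For nitric oxide and arginine metabolism 12 genes were tested, of which 3 rose, 1 fell and 8 were not called (median log2 fold change 0.38). Gch1, the entry enzyme for the cofactor tetrahydrobiopterin that nitric oxide synthases need, was at 18.1, 13.4 and 16.0 CPM in controls and at 91.8, 71.7 and 70.5 CPM in H1, H5 and H9 (log2 fold change 2.30, edgeR adjusted p = 2.85e-05). Ass1 and Asl, which rebuild arginine from citrulline, rose with log2 fold changes of 3.70 and 1.58 (edgeR adjusted p = 3.97e-05 and 0.000121). Arg2, an arginase that uses the same substrate as NOS2, fell from 834, 549 and 882 CPM to 250, 134 and 213 CPM (log2 fold change -1.92, edgeR adjusted p = 0.000706). In each of these 4 genes the groups did not overlap. Spr, the last enzyme of tetrahydrobiopterin synthesis, had a log2 fold change of -0.94 (edgeR adjusted p = 0.00129), short of the 2-fold limit.

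Of 6 other acute-phase and siderophore genes tested, 3 rose, 1 fell and 2 were not called (median log2 fold change 2.57). Ltf, the iron-binding lactoferrin, was at 1.25, 1.48 and 1.52 CPM in controls and at 30.4, 65.5 and 56.9 CPM in H1, H5 and H9 (log2 fold change 5.17, edgeR adjusted p = 1.17e-05). Hpx, the haem carrier hemopexin, was at 7.05 to 14.9 CPM in Hdac1/2-deleted mice and at most 0.151 CPM in controls. Hamp, the iron hormone hepcidin, was at 0.918, 4.48 and 0.878 CPM against 2 counts over the 3 controls. Crp, a pentraxin, fell (log2 fold change -3.24, edgeR adjusted p = 0.00185). Lbp, which binds lipopolysaccharide, was at 39.2 to 49.0 CPM in controls and 19.8 to 67.4 CPM in Hdac1/2-deleted mice, and the groups overlapped. Hpx and Hamp passed the filter only through the Hdac1/2-deleted libraries, and Crp only through the controls. Their high group decided that they were tested, so the counts and the median of this list are descriptions.

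Of 37 further genes that respond to STAT3 in some tissue, 34 had a row and 30 were tested. Among these 30, 11 rose, 1 fell and 18 were not called (median log2 fold change 0.55). The fibrinogen genes Fga and Fgg rose, Fga from at most 0.113 CPM in controls to 36.5, 107 and 71.7 CPM in H1, H5 and H9. Fgg had no count in the controls and was at least 21.5-fold higher. Fga and Fgg passed the filter only through the Hdac1/2-deleted libraries, so their high group decided that they were tested. Lrg1, a secreted glycoprotein, was at 0.453 to 0.602 CPM in controls and at 46.9, 304 and 21.9 CPM in H1, H5 and H9, with H5 highest as for Duox2 (log2 fold change 7.84, SE 1.42, edgeR adjusted p = 0.01). Icam1 and Il1rn, the antagonist of the IL-1 receptor, rose with log2 fold changes of 3.88 and 3.87 (edgeR adjusted p = 0.000193 and 0.000104). Pla2g2a, a secreted bactericidal phospholipase, fell from 9.27, 3.49 and 7.47 CPM to 0.418, 0.448 and 0.309 CPM (log2 fold change -4.11, edgeR adjusted p = 0.000135). The most abundant genes not called, by mean CPM over the 6 mice, were Mcl1, Junb, Reg3a and Il10rb, with log2 fold changes from -2.61 (Reg3a) to -0.05 (Junb). Reg3b and Reg3g, antibacterial lectins named here after their values were seen, rose with log2 fold changes of 2.60 and 2.74 (edgeR adjusted p = 0.00141 and 0.000351), while their relative Reg3a was at 187, 345 and 67.6 CPM in controls and 38.6, 49.0 and 10.5 CPM in Hdac1/2-deleted mice (edgeR adjusted p = 0.055).

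Genes of cytokine ligands, cytokine receptors and JAK kinases were read next, and not all of them act through STAT3. Il1b, Tnf and the IL-17 receptor genes Il17ra, Il17rc and Il17re are not JAK-STAT genes. Of 15 cytokine ligands 6 had a row and 4 were tested, and edgeR, DESeq2 and limma voom called 0 of them, with 0 at an unadjusted p under 0.05. With edgeR the smallest adjusted p among those 4 was that of Il11 (0.353). Il22 was among the ligands with no row, so its level was not analysed. Of 18 tested receptors and JAK kinases 1 rose, 2 fell and 15 were not called (median log2 fold change -0.50), while with no fold limit 7 fell and 1 rose. Il17rc, a subunit of the IL-17 receptor, was at 117, 136 and 181 CPM in controls and at 343, 529 and 541 CPM in H1, H5 and H9 (log2 fold change 1.70, edgeR adjusted p = 0.000549). Il17re, the IL-17C receptor, and Il11ra1 fell (log2 fold change -2.36 and -1.33, edgeR adjusted p = 0.009 and 0.0133). Il10rb, the partner of Il22ra1 and named for that after its values were seen, was at 150, 113 and 164 CPM in controls and at 83.3, 80.8 and 93.7 CPM in Hdac1/2-deleted mice, below every control but short of 2-fold (log2 fold change -0.73, edgeR adjusted p = 0.00742). Jak1 was also lower by less than 2-fold (-0.48, edgeR adjusted p = 0.0129), and Jak2 was not called.

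Of 6 other STAT genes edgeR, DESeq2 and limma voom called 0 increased (1 at an unadjusted p under 0.05, Stat6), and Stat5a fell, from 6.43, 5.83 and 6.14 CPM to 2.11, 2.11 and 1.51 CPM (log2 fold change -1.69, edgeR adjusted p = 0.000853). Stat6 had a log2 fold change of 0.65 (edgeR adjusted p = 0.0045), short of 2-fold. Among 16 tested inhibitors of STAT signalling 1 rose, 2 fell and 13 were not called (median log2 fold change 0.02). Cish, an inhibitor induced by STAT5, was at 10.2, 11.9 and 19.0 CPM in controls and at 0.729 to 1.37 CPM in the Hdac1/2-deleted mice, all far below the controls (log2 fold change -3.73, edgeR adjusted p = 7.41e-05). Cish and Socs3 belong to the same family of inhibitors. The phosphatase gene Ptpn1 rose and Ptpn6 fell (log2 fold change 1.10 and -1.36, edgeR adjusted p = 0.000386 and 0.000592).

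**Figure D5:**
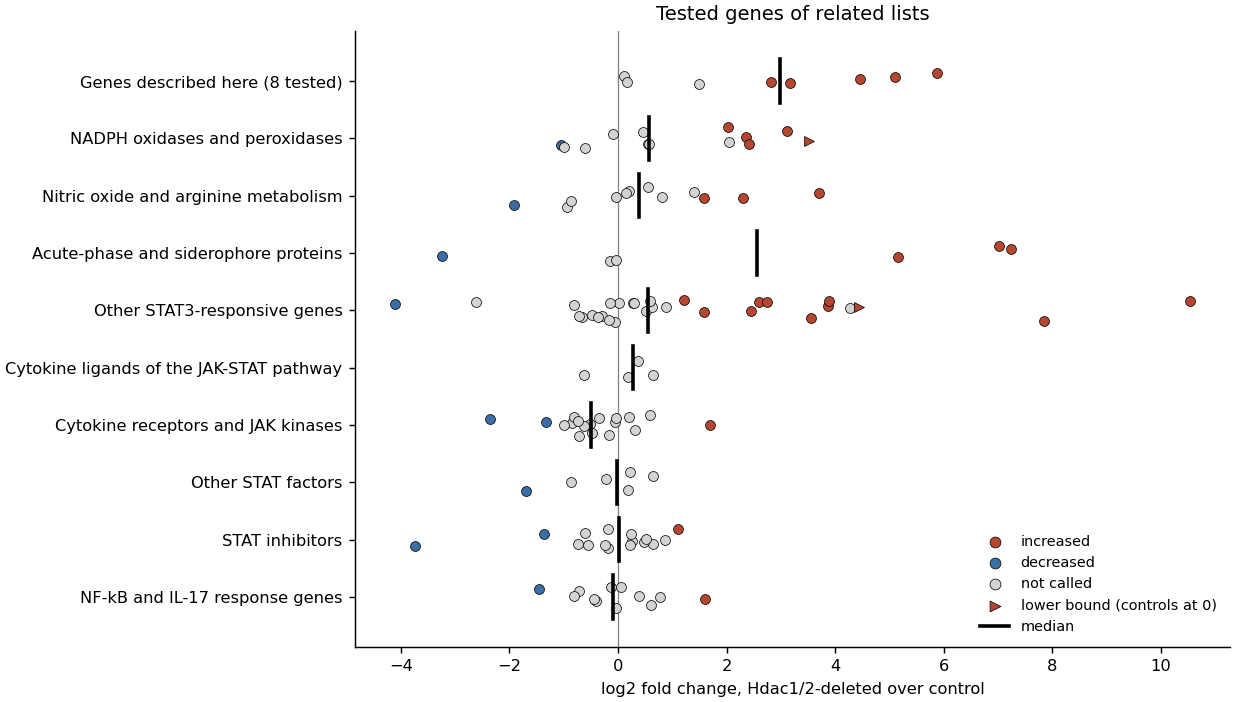
Log2 fold change (Hdac1/2-deleted over control) of each tested gene of the members and of 9 related lists, 1 symbol per gene, with the median of each list as a black bar. Triangles are genes with no count in any control, drawn at their lower bound. The medians were 2.99 for the members, 0.55 for the other STAT3-responsive genes and -0.50 for receptors and JAK kinases.

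Other cells can carry RNA of these genes, neutrophils and macrophages among them, so markers were read in the same libraries. Epithelial markers summed to 17110 to 19350 CPM in controls and 14200 to 17400 CPM in Hdac1/2-deleted mice, and edgeR called 1 of 10 increased (Krt18) and 0 decreased (3 at an unadjusted p under 0.05, and 0 with DESeq2 and limma voom). The Krt18 call was lost with upper quartile scaling and without C3 or H5. Neutrophil markers had a row for 3 of 11 genes, at 0.301 to 0.900 CPM in sum in controls and 0.421 to 1.93 CPM in Hdac1/2-deleted mice, and the groups overlapped. By mouse the neutrophil sums were 1.07, 0.421 and 1.93 CPM in H1, H5 and H9, from few counts. Of 12 tested macrophage and monocyte markers 4 rose (Mrc1, Csf1r, C1qa and C1qb), 1 fell (Cd14) and 7 were not called, and the number that rose was 2 without C3, C3-3 or H9 and with limma voom, 6 with DESeq2 and 7 with scaling by library totals alone. The 12 macrophage and monocyte markers summed to 85.74, 69.64 and 73.99 CPM in controls. In H1, H5 and H9 they summed to 46.6, 52.65 and 71.13 CPM, and the groups overlapped. Without Cd14, which held most of the control sums, they summed to 17.8, 21.2 and 15.8 CPM in controls. The sums in H1, H5 and H9 were then 32.7, 34.0 and 60.2 CPM. The part of neutrophils and macrophages in the levels of Nos2, Saa3 and Lcn2 was not tested.

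T cell and intraepithelial lymphocyte markers summed to 153 to 591 CPM in controls and 79.9 to 182 CPM in Hdac1/2-deleted mice, and of 12 tested 1 rose (Cd4), 2 fell (Cd3g and Cd8a) and 9 were not called. The number that fell depended on the fit, at 7 with DESeq2 and 0 with limma voom, and on the mice, at 8 without C1 and 0 without C3, C3-3 or H1. Innate lymphoid and Th17 markers had a row for 4 of 8 genes and edgeR, DESeq2 and limma voom called 0 of 3 tested (1 in each direction at an unadjusted p under 0.05). Of 5 tested B cell and plasma cell markers 2 rose (Cd79b and Sdc1), while Ms4a1 was at most 0.252 CPM in any mouse. Of 9 tested stromal and endothelial markers 1 rose (Pdgfrb), 2 fell (Acta2 and Dcn) and 6 were not called. The part of these cells in the members' levels was not tested.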

How the data were processed

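Jejunal epithelium was released with EDTA from 6 mice, 3 per genotype, and its RNA was made into directional poly(A) libraries and sequenced in paired reads of 100 bases. The authors aligned the reads with STAR. The study's methods name GRCm38, while the submitters' processing notes list mm9, STAR 2.4.0f1 and bcl2fastq 1.8.4, so the build is uncertain. The counting tool, strand setting and annotation are not given in the sources used here. The deposited counts are raw and cover 19616 genes, each with at least 10 counts over the 6 mice. Not used were 6 columns of normalised values and the authors' fold changes, mean levels and p-values.

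Counts were fitted with edgeR 4.0.16 in R 4.3.3 (TMM, filterByExpr, robust quasi-likelihood test, prior count 0.125, Benjamini-Hochberg adjustment over 15618 genes). A call needed a change of 2-fold or more and an adjusted p no higher than 0.05. limma 3.58.1 (voom) and DESeq2 1.42.0 were alternatives, along with other scalings, filters and limits and each mouse left out. The code was tested on simulated data, where 200 genes were given a log2 change of 2 in either direction. Of these, 156 were called in the right direction, and 8 unchanged genes were called, so a gene not called may still have changed. The Duox2 to Duoxa2 ratio was tested with an exact permutation test (scipy 1.17.1). Members and gene lists were chosen with earlier results of these data known. A list gene low in 1 group could pass the filter only through its high group, so list counts and medians are descriptions. The named genes were every member, up to 6 called genes of each list by size of change and up to 4 that were not called by level, and the 3 genes nearest in profile to Duox2, Nos2, Lcn2 and Stat3. Positions are from GENCODE M21, which held 19526 of the gene IDs, and promoters from RefSeq. Detection floors of 3 counts cover counting error only. With 3 mice per group, p-values set the difference between the groups against the spread between mice. edgeR estimated that spread with help from all tested genes.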

Additional observations from a re-analysis of the deposited data

How the results depend on the processing

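Over all alternatives run for the members, 163 values kept their direction and their side of the threshold, 6 lost the call, 1 gained it (Socs3 without C3-3) and 0 turned direction. For Saa1 and Saa2, which the main fit did not test, the reference was the unfiltered fit. Their values under the filter alternatives are copies of that fit and could not differ. Of the lost calls, 5 were of Duox2 (3 controls left out in turn, limma voom, and a limit of 0.01 on the adjusted p) and 1 was of Saa2, unfiltered, when its counts were added to those of Saa1. The members called increased numbered 3 when at least 10 counts were required in every sample, since Lcn2 and Saa3 were then not tested. They numbered 4 with limma voom, with the limit of 0.01 and without C1 or C3, and 6 without a filter, where Saa2 was added. The members called decreased stayed at 0 under every alternative run.

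Over all tested genes, 3198 were increased and 3168 decreased with no fold limit. With 1 mouse left out the counts were 1841 to 2109 increased and 1790 to 2012 decreased. Scaling by library totals alone gave 2463 increased and 1538 decreased, against 1944 and 1990 with TMM. Of the counts of called genes in the related lists, 490 stayed within 1.5 times the value reported and 54 did not.

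No paired analysis was possible because the mouse names of the groups share only the digit 1. Depth limits Saa1 and Saa2, which had at most 11 counts in any library, and the controls of Lcn2 and Saa3, which had at most 16. With 3 mice per group an exact test of a single value cannot go below 0.1.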

Other observations

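Of 12 tested genes of the NF-kB and IL-17 response, 1 rose, 1 fell and 10 were not called (median log2 fold change -0.08). Ccl20, a chemokine for cells that carry CCR6, was at 0.785, 0.972 and 1.47 CPM in controls and at 5.44, 2.19 and 2.16 CPM in H1, H5 and H9 (log2 fold change 1.61, edgeR adjusted p = 0.0187), and here H1 rather than H5 was highest. Pigr, the receptor that carries IgA into the lumen, fell from 6229, 10540 and 8378 CPM to 3105, 2778 and 3296 CPM (log2 fold change -1.45, edgeR adjusted p = 0.00131). Its level was even among the Hdac1/2-deleted mice, unlike that of Duox2.

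Among genes of the STAT3-responsive list named after their values were seen, Fut2, a fucosyltransferase of the epithelial surface, was at 0.528, 0.774 and 0.489 CPM in controls and at 6.87, 12.6 and 1.58 CPM in H1, H5 and H9. The order of its Hdac1/2-deleted mice was that of Duox2, Duoxa2 and Saa3 (log2 fold change 3.55, SE 0.72, edgeR adjusted p = 0.00611). Steap4, a metalloreductase, was at 0.136, 0.162 and 0.565 CPM in controls and at 1.17, 15.4 and 0.244 CPM in H1, H5 and H9. Its groups overlapped and it was not called (edgeR adjusted p = 0.097), with H5 again highest and H9 lowest. Fgb, the third fibrinogen gene, had no count in the controls and was at 0.135, 0.685 and 0.374 CPM in H1, H5 and H9, a rise of at least 7.66-fold. It did not pass the filter on low counts, and without a filter edgeR gave an adjusted p of 0.00292.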
